A study of Mus musculus with 16 samples.

Results

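The SoxF group of transcription factors has 3 members, Sox7, Sox17 and Sox18, and all of them were found by symbol among the 28692 gene symbols of a single-cell RNA count table of mouse lung endothelial cells (EC). They were chosen as a gene family and for the courses of Sox17 and Sox18 over time in this same table, so their levels by day and by vessel class are given as a description. C57BL/6N female mice were used throughout. The d0 cells came from wild-type mice, the d15 cells from mice with a primary tumour, the d22 cells from mice after the tumour had been resected and the d36 cells from mice with metastases. The tumour was started by Lewis Lung Carcinoma (LLC) cells, a mouse lung carcinoma line, placed under the skin, and the sources used here give no ages, no gene edits and no number of mice. The labels list 16 libraries, 4 for each day, but the cell names carry only the day, so each day was 1 pooled sample. Differences between days therefore have no replicate check and no test, and every interval covers counting error only.

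SoxF proteins bind DNA through a high-mobility-group (HMG) box and are found in the lining cells of blood and lymph vessels. Sox17 is known for its part in the arterial identity of endothelium, Sox18 for switching on the lymphatic programme, and Sox7 for its early role in vessel formation. The 3 proteins can stand in for each other in part, and Notch, Vegf and Wnt signalling are known to be tied to them.

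The coding windows in which the 3 genes are most alike are shown because they bear on whether a read could be given to the wrong member. The libraries were made with a 3′ kit, and how many reads came from these windows is not known from the counts. Each window has 75 bases at the end of the HMG box, read 5′ to 3′ on the coding strand. Capitals mark the 59 bases that all 3 genes share, and lower case marks the bases at which they differ.
Sox7: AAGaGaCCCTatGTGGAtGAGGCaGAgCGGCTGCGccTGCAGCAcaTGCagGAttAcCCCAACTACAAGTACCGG
Sox17: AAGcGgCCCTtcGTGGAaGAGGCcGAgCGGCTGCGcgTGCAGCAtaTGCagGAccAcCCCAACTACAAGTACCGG
Sox18: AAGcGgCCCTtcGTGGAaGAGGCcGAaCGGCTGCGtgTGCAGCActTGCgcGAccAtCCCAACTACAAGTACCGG
In GRCm38, the build that mm10 names, these windows lie in exon 2 of Sox7 (chr14:63947787-63947861, plus strand), exon 4 of the Sox17 transcript Sox17-206 (chr1:4492562-4492636, minus strand) and exon 2 of Sox18 (chr2:181670890-181670964, minus strand). Sox17 and Sox18 were identical at 68 of the 75 bases, Sox7 and Sox17 at 65, and Sox7 and Sox18 at 60. Even so, no stretch of 31 bases was shared between the transcripts of any pair of members. Sox17 and Sox18 shared no such stretch with transcripts of any other gene either, while Sox7 shared 23 of its 3254. The Sox17 locus overlaps the predicted gene Gm37587 on the opposite strand.

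In all, 8874 of 9036 deposited cells were kept as EC, between 1480 and 3189 per day. Among them were 166 (d0), 53 (d15), 129 (d22) and 139 cells (d36) of clusters low in Malat1. Those cells count in every value for all EC but belong to no vessel class. Depth went with the day: the median EC held 7646 (d0), 4151 (d15), 7664 (d22) and 3408 (d36) unique molecular identifiers (UMIs, the tags by which transcripts are counted). The summed level of 9 pan-endothelial markers, among them Pecam1, Cdh5 and Tie1, lay between 11996 and 13760 CPM (counts per 1000000 UMIs) at the 4 days, and none of the 9 was at 0 on any day. The summed levels of 10 lists of markers of other cell types lay between 0 and 143 CPM, with the epithelial list at 58.5 to 143 CPM and the list of monocytes and neutrophils at 19.2 (d0), 69 (d15), 15.2 (d22) and 62 CPM (d36). Clusters and cells rich in these same markers had been left out first, so low sums follow in part from that filter. Chil3 of macrophages, Cspg4 of mural cells, and Msln and Wt1 of the mesothelium were at 0 on every day. The part of other cell types in the SoxF levels was not tested. Across days, 36 cell barcodes occurred more than once.

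Sox18 was the member whose level moved most. On d0 it stood at 222 CPM (95% interval 210 to 235), on d15 at 87.3 CPM (73.9 to 102), on d22 at 309 CPM (296 to 323) and on d36 at 118 CPM (102 to 135). Sox18 was thus low in mice with a primary tumour and in mice with metastases, and highest after resection, and none of the 4 intervals overlapped except those of d15 and d36 at their edges. Against d0 the level was 0.393 times as high on d15 (0.330 to 0.466), 1.39 times on d22 (1.30 to 1.49) and 0.530 times on d36 (0.454 to 0.616). From d15 to d22 it was 3.54 times as high (2.999 to 4.21), and from d22 to d36 it was 0.381 times as high (0.327 to 0.441). In cells with any Sox18 UMI, the mean count was 3.74 (d0), 2.34 (d15), 4.43 (d22) and 2.44 (d36), with no correction for depth.

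Sox17 had the highest CPM of the 3 and a flatter course. On d0 its level was 363 CPM (348 to 379), on d15 488 CPM (455 to 522), on d22 397 CPM (383 to 413) and on d36 492 CPM (459 to 527). Over all EC its steps were small: 1.34 times the d0 level on d15 (1.24 to 1.46), 1.09 times on d22 (1.03 to 1.16) and 1.35 times on d36 (1.25 to 1.47). Its level at d36 was 1.01 times that at d15 (0.916 to 1.11).

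Sox7 had the lowest CPM of the 3 at d0 and d22, while Sox18 was lower at d15 and d36. On d0 it stood at 119 CPM (110 to 129), on d15 at 161 CPM (142 to 181), on d22 at 108 CPM (101 to 117) and on d36 at 147 CPM (130 to 167). Its ratio to d0 was 1.35 on d15 (1.17 to 1.55), 0.910 on d22 (0.819 to 1.01) and 1.24 on d36 (1.06 to 1.43). The comparisons with d0 share the d0 cells, so their values stand side by side and are not independent of each other.

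**Figure D1:**
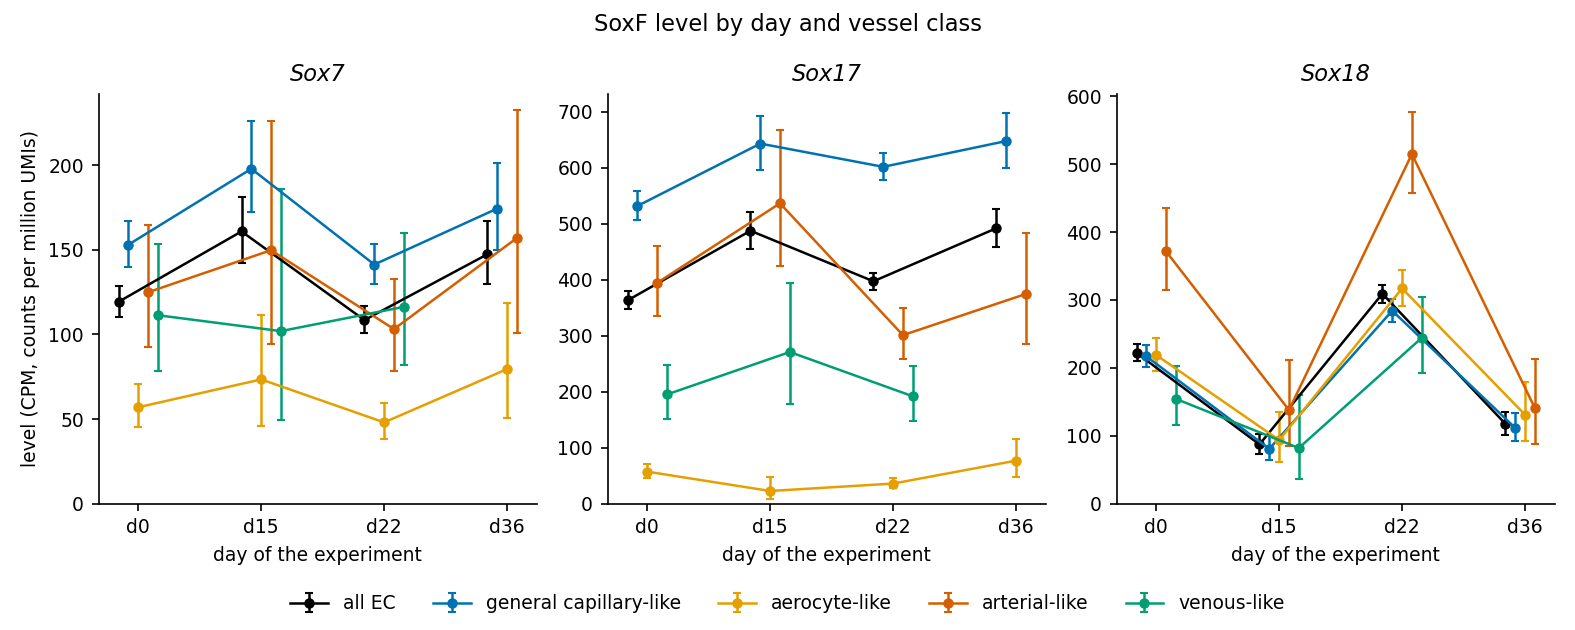
Level in CPM (vertical axis, from 0, with its own scale for each gene) of Sox7, Sox17 and Sox18 at the 4 days (horizontal axis), in all EC and in each vessel class with at least 50 cells. Points are sums over cells and bars are 95% counting intervals. Sox18 dips at d15 and d36 in every line drawn for those days, while Sox17 lies at 22.8 to 77 CPM in aerocyte-like cells.

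A size rule served as the yardstick over all genes. It took the genes with 50 CPM or more in one of the days and 200 UMIs or more over the pair of days as measured, and called a gene where its ratio was 1.5 or more, or the inverse, with an interval, from the undivided counts, not holding 1. Of the 3 members, Sox18 met it as lower at d15 against d0, where 2.26% of the 3713 measured genes did and 4.12% were called higher (6.38% in all). It was again the 1 member called lower at d36 against d0, with 3.29% of genes called lower and 4.33% higher (7.62% in all). No member met the rule at d22 against d0, where 0.253% of genes were called higher and 1.71% lower (1.97% in all). Sox18 was called higher at d22 against d15, as were 1.78% of genes, with 5.65% called lower (7.44% in all). It was called lower at d36 against d22, as were 2.45% of genes, with 5.83% called higher (8.28% in all). No member met the rule between d15 and d36, where 0.684% of genes were called higher and 1.67% lower (2.35% in all). Because the members were picked from these contrasts, the counts describe them and nothing is read from the shares.

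In order of ratio, Sox18 held place 5 from the lowest of 3713 measured genes at d15 against d0, place 38 of 3650 at d36 against d0 and place 5 of 3634 at d36 against d22. Between d15 and d22 it had the second highest ratio of 3698 genes. Sox17 and Sox7 were less extreme than Sox18 but lay toward the high end on the days with a tumour or metastases. At d15 against d0, 91.1% and 91.5% of measured genes had a lower ratio than theirs. The shares were 92.5% and 86.5% at d36 against d0, and 84.6% and 90.9% at d36 against d22. At d22 against d15 both lay toward the low end, with shares of 17.1% and 6.06%. The shares were 82.2% and 19.3% at d22 against d0, and 58.4% and 31.9% at d36 against d15.

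The share of cells with a UMI depends on depth, and it was read after each cell had been thinned to 2000 UMIs. Cells with fewer UMIs were left out, which took away none at d0 and d22, 302 at d15 and 388 at d36. After thinning, Sox18 was detected in 28.1% of d0 EC (26.4 to 29.9), 11% of d15 EC (9.22 to 12.9), 36.4% of d22 EC (34.8 to 38.1) and 16.1% of d36 EC (14.1 to 18.3). Without thinning the shares were 51.7%, 17.3%, 60.4% and 20.5%. The order of the days was the same in both readings.

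For Sox17 the thinned shares were 34.9% on d0 (33.1 to 36.8), 34.5% on d15 (31.8 to 37.3), 38.5% on d22 (36.8 to 40.2) and 34.7% on d36 (32 to 37.5). The shares at d0, d15 and d36 thus lay within each other's intervals, so the higher CPM of Sox17 at d15 and d36 was not accompanied by a higher share of cells with a Sox17 UMI. Without thinning the shares were 48.4%, 37.0%, 50.3% and 34.8%. Sox7 was detected in 16.5%, 17.2%, 15.6% and 16.5% of thinned cells and in 28.9%, 21.8%, 28.4% and 18.3% of unthinned cells.

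Free RNA in the droplets can give UMIs in cells that do not express a gene. The clusters led by genes of other cell types, such as Gsn and Mfap4 of fibroblasts or Ager and Sftpc of the alveolar epithelium, held 36 cells at d0 and 38 at d22, with median counts of 7186 and 8664 UMIs. After thinning, 16.7% of them had a Sox17 UMI at d0 (6.37 to 32.8) and 7.89% at d22 (1.66 to 21.4). For Sox18 the shares were 8.33% (1.75 to 22.5) and 15.8% (6.02 to 31.3), and for Sox7 5.56% (0.68 to 18.7) and 5.26% (0.644 to 17.7). These shares lay below those in EC of the same day. For Sox7 the intervals held the EC shares of 16.5% and 15.6%, so Sox7 over all EC was not set apart from them. At d15 and d36 such clusters held only 13 and 27 cells, too few to place the EC shares of those days against them. The clusters are also an imperfect background, since the fibroblast-led one held 4452 CPM and the Ager-led one 3091 CPM of pan-endothelial markers.

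Cells of 1 day can also be set against cells of another day at like depth. Within bands of UMIs per cell, Sox18 kept its course: at d15 against d0 the ratio was 0.409 in cells of 2000 to 4000 UMIs, 0.437 at 4000 to 6000, 0.333 at 6000 to 9000 and 0.389 at 9000 to 15000. At d36 against d0 the ratios were 0.676, 0.655, 0.448 and 0.497 in the same order, and in the lowest band the interval reached past 1 (0.450 to 1.01). At d22 against d0 they ran from 1.38 to 1.41.

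Sox17 did not keep its course in every band. At d15 against d0 its ratio was 1.30 at 2000 to 4000 UMIs (1.00 to 1.70), 1.29 at 4000 to 6000 (1.08 to 1.53) and 1.24 at 6000 to 9000 (1.08 to 1.41), but 0.604 at 9000 to 15000 UMIs (0.453 to 0.791), where d15 had 92 cells against 681 at d0. At d22 against d0 the ratios were 1.47, 0.914, 1.10 and 1.12 in the same order of bands, and at d36 against d0 they were 1.44, 1.25, 1.13 and 0.945. Over all EC Sox17 was lower at d22 than at d15, but it was higher at d22 in 2 of the 4 bands, with 485 against 430 CPM at 2000 to 4000 UMIs and 421 against 226 CPM at 9000 to 15000. Sox7 at d15 against d0 had ratios of 1.34, 1.03, 1.18 and 0.981. The makeup of the bands by vessel class was not held equal, and its part in these ratios was not tested.

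**Figure D2:**
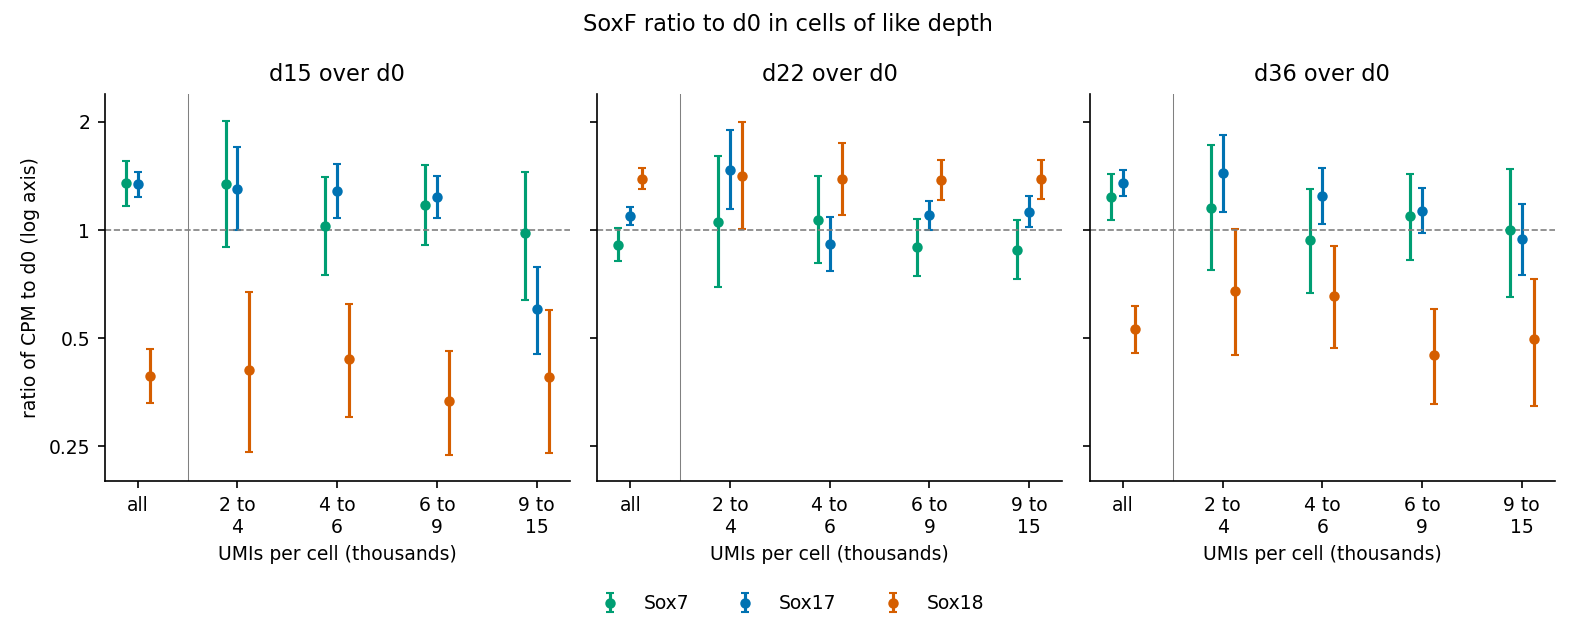
Ratio of CPM to d0 (vertical log axis) for Sox7, Sox17 and Sox18, in all EC and in 4 bands of UMIs per cell (horizontal axis), with 95% counting intervals and a dashed line at 1. Sox18 lies below 1 in every band at d15 and d36, whereas Sox17 at d15 passes from 1.30 in the lowest band to 0.604 in the highest.

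The counts themselves have a property that touches the members unequally. Of all values above 0, between 45.2% and 54.9% per day were exactly 4, and between 56.5% and 66.5% were multiples of 4, so a count of 4 is not 4 independent molecules. The labels list 4 libraries per day, and whether they are the source was not tested. The intervals of levels and ratios printed here were therefore computed from counts divided by 4.

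Sox17 shared this property, since 61.8% (d0), 75% (d15), 64.4% (d22) and 73.6% (d36) of its values from 1 to 4 were a 4, against medians of 68.3% to 76.9% over genes. Sox7 was lower, at 39.6% to 54.2%. Sox18 stood far below both, at 19.4% (d0), 14.6% (d15), 24.8% (d22) and 17% (d36), and at each day at most 1.56% of the genes compared had a lower share. At d15, 39.1% of all Sox18 values above 0 were a 1, against 18.1% at d0. Among values from 1 to 4, those of Sox18 thus lay mostly below 4, where those of most genes lay at 4.

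At d0, 41 genes had a lower share than Sox18, 24 of them predicted genes, pseudogenes or ribosomal genes. At d15 against d0, 40 of the 41 had a ratio above 1, with a median log2 ratio of 0.64 against -0.02 for the other genes. At d36 against d0, 39 of the 41 had a ratio above 1, with a median of 0.91 against -0.06. At d22 against d0, 34 of the 41 had a ratio below 1. The part of this property in the Sox18 level was not tested. When each value was divided by 4 and rounded up, or when cells with a UMI were counted in place of UMIs, Sox18 remained lower at d15 and d36 and higher at d22. Both recounts give a value of 1 and a value of 4 the same weight, and neither is a test of that part.

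**Figure D3:**
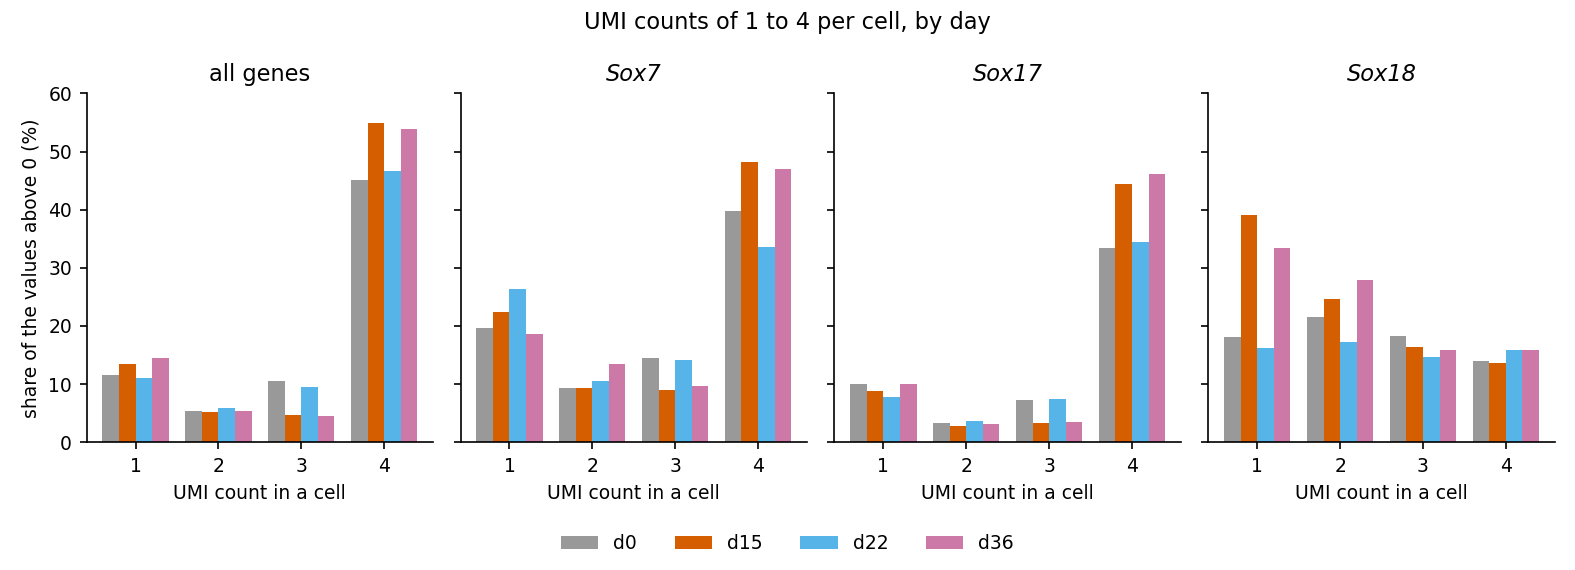
Share of all values above 0 (vertical axis, %) that were 1, 2, 3 or 4 UMIs in a cell (horizontal axis), for all genes and for each SoxF member, with 1 bar per day. For all genes and for Sox17 the bar at 4 is the highest, whereas Sox18 has 13.7% to 15.9% of its values at 4 and, at d15, 39.1% at 1.

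The vessel classes were named from markers after clustering, and no SoxF gene was among the variable genes used to cluster. General capillary-like cells (Gpihbp1, Plvap, Aplnr) made up 61.7%, 70.8%, 64.9% and 64.7% of EC at d0, d15, d22 and d36. Aerocyte-like cells (Car4, Ednrb), a large and thin kind of capillary cell, made up 17.1%, 11.9%, 17.0% and 15.3%. Arterial-like cells made up 7.35% to 8.62%, and venous-like cells 2.15% to 4.99% of EC. Venous-like cells numbered 34 at d36 and were left out of comparisons that use that day, since a class needed 50 cells.

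The general capillary-like class did not have the same makeup at each day. At d0 its largest clusters were led by Pcp4l1 and Cyp1a1 and by the early response genes Atf3 and Egr1. At d15 they were led by Sox11 and Lpl and by Hmcn1 and mitochondrial genes, at d22 by MHC class II genes and by Atf3 and Egr1, and at d36 by Hmcn1 and mitochondrial genes and by Sox11 and Lpl. In the aerocyte-like class a deep cluster led by Fibin and Chst1 held most cells at d0, d15 and d22, and a shallower cluster led by Tbx2 and Lmo7 held most at d36.

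Sox17 was highest in general capillary-like cells, with 532, 643, 602 and 648 CPM at d0, d15, d22 and d36. Arterial-like cells followed with 394, 537, 301 and 375 CPM, and venous-like cells had 195, 271 and 192 CPM at d0, d15 and d22. Aerocyte-like cells had 57.3, 22.8, 36 and 77 CPM. General capillary-like cells thus had 9.28 times the Sox17 level of aerocyte-like cells at d0 (7.46 to 11.7), and 28.2, 16.7 and 8.42 times at the later days. Arterial-like cells had 0.742 times the level of general capillary-like cells at d0 (0.626 to 0.873) and 0.5 times at d22 (0.426 to 0.584), while at d15 the interval held 1 (0.653 to 1.05). The level in arterial-like cells was between 1.57 and 2.02 times that in venous-like cells on the 3 days with both.

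After thinning, 9.33%, 3.95%, 5.16% and 8.85% of aerocyte-like cells had a Sox17 UMI. The d0 and d22 shares lay below the 16.7% (6.37 to 32.8) and 7.89% (1.66 to 21.4) in the clusters of other cell types. They were thus not set apart from background at this depth. Whether they are background cannot be told from those few cells, which also held UMIs of pan-endothelial markers. Thinned to 1200 UMIs, the d0 share was 4.89% against 2.78% (0.0703 to 14.5) in those clusters, which held 36 cells. At d15 and d36 those clusters held too few cells to place the aerocyte-like shares. The median aerocyte-like cell held 13012 UMIs at d0 against 7418 in general capillary-like cells.

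Sox18 had another order of classes. Arterial-like cells were highest at d0 with 372 CPM, at d15 with 138 CPM, at d22 with 515 CPM and at d36 with 141 CPM. General capillary-like cells had 217, 80.8, 284 and 112 CPM, aerocyte-like cells 219, 93.7, 317 and 131 CPM, and venous-like cells 154, 82.1 and 244 CPM on the first 3 days. Arterial-like cells had 1.71 times the level of general capillary-like cells at d0 (1.43 to 2.05) and 1.81 times at d22 (1.59 to 2.06), but at d36 the ratio of 1.26 had an interval that held 1. General capillary-like and aerocyte-like cells did not differ beyond their intervals at d0 (0.991, 0.867 to 1.14), at d15 or at d36, and at d22 the ratio was 0.896 (0.810 to 0.993). After thinning, a Sox18 UMI was found in 27.7% of general capillary-like and 29.1% of aerocyte-like cells at d0, and in 35.3% and 37% at d22, against 8.33% (1.75 to 22.5) and 15.8% (6.02 to 31.3) in the clusters of other cell types. At d15 the shares were 10.6% and 10.53% and at d36 16.2% and 11.5%, and too few cells of other types were there to place them against background.

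Sox7 resembled Sox17 in its spread over classes, with a narrower range. General capillary-like cells had 153, 198, 141 and 174 CPM, arterial-like cells 125, 150, 103 and 157 CPM, and aerocyte-like cells 57.0, 73.4, 48.0 and 79.5 CPM. Venous-like cells had 111, 102 and 116 CPM on the first 3 days. General capillary-like cells had between 2.19 and 2.94 times the level of aerocyte-like cells. After thinning, 7.56% (d0) and 7.92% (d22) of aerocyte-like cells had a Sox7 UMI. Both shares lay within the intervals of the clusters of other cell types (0.68 to 18.7 and 0.644 to 17.7), so they were not set apart from background. Arterial-like and venous-like cells did not differ in Sox7 beyond their intervals on any of the 3 days (0.887 to 1.47 times).

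Within each class Sox18 repeated its course. At d15 against d0 its ratio was 0.373 in general capillary-like cells (0.295 to 0.465), 0.428 in aerocyte-like cells (0.279 to 0.631), 0.371 in arterial-like cells (0.222 to 0.591) and 0.532 in venous-like cells (0.221 to 1.12). At d22 against d15 the ratios were 3.52, 3.38, 3.73 and 2.98, and at d36 against d22 they were 0.393, 0.413 and 0.274 in the first 3 classes. Over single clusters with at least 50 cells in both days, Sox18 was below its d0 level in 9 of 9 clusters at d15 (0.291 to 0.593) and in 11 of 11 at d36 (0.335 to 0.931). It was above its d0 level in 13 of 13 clusters at d22 (1.13 to 2.01). By the size rule it was called lower in 7 of the 9 at d15 and 7 of the 11 at d36, and higher in 4 of the 13 at d22. Some clusters not called had too few UMIs to be measured by the rule. Calls used the undivided counts, so the venous-like cluster was called at d15 although its interval above holds 1. No share of called genes per cluster is given, so nothing is read from these counts of calls. The clusters of a day are parts of 1 pooled sample, so they are not replicates.

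Sox17 did not move in 1 direction over the classes. At d15 against d0 its ratio was 1.21 in general capillary-like cells (1.11 to 1.32), 1.36 in arterial-like cells (1.03 to 1.79), 1.39 in venous-like cells (0.854 to 2.20) and 0.398 in aerocyte-like cells (0.152 to 0.866), the last from 27 UMIs at d15, where the level could not be placed against background. The aerocyte-like share at d0 was not set apart from background either. At d36 against d0 it was 1.22 in general capillary-like cells (1.11 to 1.33) and 0.95 in arterial-like cells (0.692 to 1.29). In arterial-like cells the Sox17 ratio was 0.763 at d22 against d0 (0.612 to 0.953) and 0.561 at d22 against d15 (0.428 to 0.741). With each cell put in the class of its highest marker score, in place of clusters, the ratio at d22 against d0 was 1.07 in arterial-like cells and the ratio at d15 against d0 was 1.17 in aerocyte-like cells. By cluster, Sox17 was above its d0 level in 6 of 9 clusters at d15, 5 of 13 at d22 and 9 of 11 at d36. These counts take in ratios from few UMIs, such as the shallower aerocyte-like cluster with 1 Sox17 UMI at d15 and 7 at d22. They also take in ratios at 1, such as 1.003 at d15 and 0.9995 at d22 in the cluster led by Atf3 and Egr1. General capillary-like cells, where Sox17 is highest, were 70.8% of EC at d15 against 61.7% at d0, and their ratio was smaller than the 1.34 over all EC. The ratios of 1.36 in arterial-like and 1.39 in venous-like cells were not smaller. The part of class makeup in the ratio over all EC was not tested.

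Sox7 at d15 against d0 had ratios of 1.29 in general capillary-like cells (1.10 to 1.52), 1.29 in aerocyte-like cells, 1.2 in arterial-like cells and 0.916 in venous-like cells, and the last 3 intervals held 1. Over clusters it was above its d0 level in 6 of 9 at d15 and in 7 of 11 at d36.

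The ratio of Sox17 to Sox18 UMIs in the same cells does not depend on how a day's total is scaled. On d0 it was 1.64 (1.52 to 1.76), on d15 5.58 (4.69 to 6.69), on d22 1.29 (1.21 to 1.36) and on d36 4.18 (3.57 to 4.91). The ratio was thus high with a primary tumour and with metastases and low in wild-type mice and after resection. In general capillary-like cells it went from 2.45 to 7.96, 2.12 and 5.80, and in arterial-like cells from 1.06 to 3.89, 0.585 and 2.66. In venous-like cells it was 1.26, 3.30 and 0.786 on the first 3 days. Aerocyte-like cells stayed below 1 at every day, at 0.262, 0.243, 0.114 and 0.587, with an interval at d36 that reached 1.01. In arterial-like cells the more abundant member by UMIs thus changed with the day, from Sox17 at d15 and d36 to Sox18 at d22. By unthinned cells with a UMI, Sox17 led Sox18 there at d15 (50 against 35 cells) but not at d36 (40 against 42) or d22 (131 against 208). The size of the ratio depends on how counts of 4 are read: with each value divided by 4 and rounded up it was 1.28, 3.40, 1.07 and 2.66 over EC. Which member leads can depend on it too. Over EC, fewer cells held a Sox17 UMI than a Sox18 UMI at d0 (1270 against 1357) and at d22 (1605 against 1926).

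**Figure D4:**
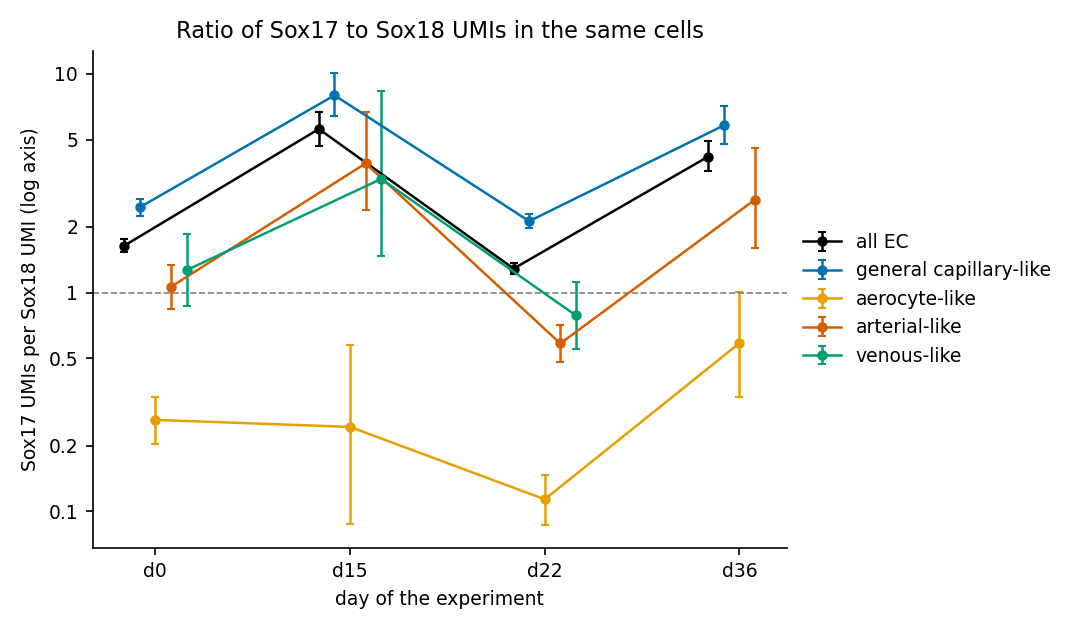
Sox17 UMIs per Sox18 UMI (vertical log axis) at the 4 days (horizontal axis), in all EC and in each vessel class with at least 50 cells, with 95% counting intervals and a dashed line at equal counts. The line of all EC peaks at d15 (5.58) and d36 (4.18), and aerocyte-like cells lie below the dashed line at every day.

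In general capillary-like cells, Sox17 and Sox18 were found together about as often as their separate shares give at d0, d15 and d22, and more often at d36. After thinning, 12.3% of these cells held both at d0 against 12.5% from the product of both shares, 4.55% against 4.44% at d15, 17.5% against 17.7% at d22 and 8.75% against 7.12% at d36. Without thinning, the share with both was 1.07, 1.10, 1.06 and 1.30 times the product at d0, d15, d22 and d36. The excess at d36 was not tested.

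Lymphatic-like cells, in which Sox18 is known to act early, were few. They had 47 Sox18 UMIs in 22 cells at d0, which is 345 CPM (177 to 606), and 26 in 19 cells at d22, which is 206 CPM (79.5 to 436). At d15 and d36 they had 0 in 12 and 3 cells, where 3 counts would have been 69.4 and 286 CPM. Sox17 had 5 and Sox7 had 1 UMI in these cells at d0.

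Of the other 16 Sox genes in the table, 3 reached 10 CPM at any day and 7 had no UMI in EC. Sox4, a SoxC gene, stood at 213, 241, 223 and 165 CPM at d0, d15, d22 and d36. Sox11, another SoxC gene and a leading gene of a general capillary-like cluster, stood at 184, 258, 159 and 273 CPM. Its level at d22 was 0.617 times that at d15 (0.552 to 0.690) and at d36 it was 1.72 times that at d22 (1.54 to 1.92), both past the size rule. Sox13, a SoxD gene, stood at 34.3, 43.9, 31.2 and 39.8 CPM. Of the 6 Sox genes with at least 10 CPM, Sox18 was the only one below its d0 level at d15.

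A list of 26 genes known as SoxF partners or targets, or as genes of the Notch and Vegf pathways near them, was chosen with earlier results of these data known. Of these, 22 had at least 10 CPM at d15 or d0 and 17 were measured by the size rule. At d15 against d0, 19 of the 22 had a ratio above 1, 1 rose past the rule and 1 fell (6.38% of all measured genes passed), and the median log2 ratio was 0.23 against 0.01 over all measured genes. At d36 against d0, 10 were above 1 and 12 below, with a median of -0.02 against -0.03. The gene that rose past the rule on both days was Efnb2, the ephrin ligand of arterial EC, from 76.1 CPM at d0 to 134 CPM at d15 and 130 CPM at d36. The gene that fell on both days was Vcam1, an adhesion molecule for leukocytes, from 106 CPM to 63.3 and 54.7 CPM. Over all days Vcam1 stood at 955 CPM in venous-like and 328 CPM in arterial-like cells. In general capillary-like and aerocyte-like cells it stood at 7.0 and 4.13 CPM. Venous-like cells were 4.99% of EC at d0, 3.92% at d15 and 2.15% at d36, and the part of class makeup in the fall was not tested.

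Among the Notch genes, Dll4, a ligand, stood at 154, 192, 162 and 160 CPM, and Notch1, a receptor, at 70.5, 97.9, 75.3 and 97.9 CPM. Hey1, a target of Notch in arteries, stood at 185, 222, 175 and 255 CPM. Gja4, a gap junction protein, was at 396, 591, 562 and 385 CPM, and its ratio of 1.49 at d15 against d0 lay just under the rule. Of the receptors for Vegf, Kdr stood at 383, 331, 395 and 311 CPM and Flt1 at 333, 389, 292 and 318 CPM. Claudin 5 (Cldn5), a tight junction gene known as a Sox18 target, stood at 4783, 5655, 5815 and 4709 CPM, a ratio of 1.18 at d15 against d0, and Mef2c, a known partner of Sox18, at 130, 131, 127 and 125 CPM. Neither had the course of Sox18.

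A list of 22 other endothelial transcription factors had 18 members with at least 10 CPM at d15 or d0. At d15 against d0, 10 were above 1 and 8 below. Of the 16 measured by the size rule, 3 rose past it and none fell, where 4.12% of all measured genes were called higher and 2.26% lower (6.38% in all). Those that rose were Klf2, a gene known to respond to blood flow, from 2640 to 4064 CPM, Foxf1, a lung mesenchyme and capillary factor, from 858 to 1544 CPM, and Lyl1 from 29.4 to 56.8 CPM. At d36 against d0, 11 of 19 were above 1 and 8 below. Of the 15 measured, 2 rose past the rule and 1 fell, beside 7.62% of all measured genes. Foxf1 rose to 1596 CPM and Klf2 to 4478 CPM, while Meox1 fell from 81.5 to 46.0 CPM. Erg, an ETS factor of all EC, stood at 104, 75.7, 80.9 and 89.8 CPM.

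The genes whose level was most like that of a member were sought over 15 units of class and day with at least 50 cells, among 3217 genes, by Pearson's r of log2(CPM + 1). Units of 1 day share their pool of cells, so r is a description. For Sox17 these were Itga6 (r = 0.97), Npr3 (0.97), Gpihbp1 (0.97), Rnf144a (0.96) and Zeb2 (0.96). All 5 were low in aerocyte-like cells: Itga6 had a mean of 10.1 CPM there against 166 CPM in general capillary-like cells, and Gpihbp1 247 against 2150 CPM. For Sox7 they were Cyyr1 (0.96), Pgap2 (0.94), Npr3 (0.94), Gpihbp1 (0.93) and Hhex (0.93).

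For Sox18 the closest were Adh5 (0.89), Arid4b (0.83), Tma7 (0.82), Hagh (0.80) and Akr1a1 (0.79). Their ratios at d15 against d0 were 0.821, 0.674, 0.809, 0.844 and 0.785, all nearer to 1 than the 0.393 of Sox18. Over the same units, r was 0.92 between Sox7 and Sox17, -0.25 between Sox7 and Sox18 and -0.0042 between Sox17 and Sox18.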

How the data were processed

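The authors deposited 1 table of counts, UMIs per gene and cell. Libraries were made with the 10x Genomics Chromium 3′ kit, version 2, per the labels' protocols, and Cell Ranger 2.1.1 and mm10 are the tool and build listed in the submitters' processing notes. Not given in the sources used here were the annotation release, the strand setting and the filter on cells.

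Of the deposited cells, 19 with under 300 genes or over 10% mitochondrial UMIs were removed. Scrublet called 25 of 9017 cells doublets (0.277%), so few that the caller is not relied on. The called cells were dropped, and other doublets may remain. Clusters were made in scanpy 1.11.5 from 2000 variable genes without the SoxF genes, 30 principal components and 15 neighbours, by the Leiden method at resolution 1.0 (leidenalg 0.10.2, igraph 0.11.9). CPM is the sum of a gene's UMIs over cells, per 1000000 UMIs of the same cells. Intervals are exact 95% Poisson, binomial or Clopper-Pearson intervals, computed for CPM and ratios from counts divided by 4. Calls by the size rule used the undivided counts. Scripts were tested on simulated data and run on Python 3.11.15, with TMM factors from edgeR 4.0.16 as an alternative scaling. Transcripts came from GENCODE.

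The members, the gene and marker lists, and the tests were chosen with earlier results of these data known. Named genes were the members, the 5 most like each, other Sox genes at 10 CPM or more, and members of both lists. Set after seeing the clusters were these rules: a leading gene was detected in at least 25% of a cluster's cells; a cluster with Malat1 below 25% of the median cluster was kept out of the classes; a cluster stayed unnamed with more leading genes of another class than of its own, with none of its own (general capillary exempt) or with under 3 detected markers; and a cluster counted as non-endothelial with pan-endothelial markers below 60% of the median cluster and another type's markers above 1000 CPM. The last rule was revised until a fibroblast-led cluster was no longer named arterial. Cells with at least 2% of UMIs from other types' markers were left out.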

Additional observations from a re-analysis of the deposited data

Results flagged for a closer look

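The Sox17 ratio at d15 against d0 lay on opposite sides of 1 in different vessel classes. Its ratio was 1.21 in general capillary-like cells and 1.36 in arterial-like cells but 0.398 in aerocyte-like cells, each with an interval on 1 side of 1. With 1 pooled sample per day the difference between classes was not tested. In aerocyte-like cells the ratio rests on 27 Sox17 UMIs at d15, where the level could not be placed against background. The aerocyte-like share of cells with a Sox17 UMI at d0 was not set apart from background either. With classes taken from marker scores in place of clusters the aerocyte-like ratio was 1.17. At d22 against d0 the ratio was 1.13 in general capillary-like cells but 0.763 in arterial-like cells and 0.628 in aerocyte-like cells, again with intervals on 1 side of 1 and with no test of the difference. The aerocyte-like shares of both days were not set apart from background, so the 0.628 is not read as a fall in these cells. With classes from marker scores the ratio in arterial-like cells was 1.07.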

How the results depend on the processing

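No paired analysis was possible because the cell names carry no library or replicate number. For the same reason no library could be left out. Sox18 kept its direction against d0 in every alternative run, with ratios of 0.333 to 0.544 at d15, 1.19 to 1.43 at d22 and 0.448 to 0.697 at d36. At d36 it no longer met the size rule when cells with a UMI were counted (0.697) and in cells of 2000 to 4000 UMIs (0.676). With cells above the common minimum of 2576 UMIs, its d36 level was 1.52 times that at d15.

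In bands of UMIs per cell, chosen after seeing the data, the direction changed for Sox17 at 9000 to 15000 UMIs (0.604 at d15, past the size rule, and 0.945 at d36) and at 4000 to 6000 UMIs (0.914 at d22). It changed for Sox7 at 9000 to 15000 UMIs (0.981 at d15, 0.998 at d36), at 4000 to 6000 UMIs (1.07 at d22, 0.937 at d36) and at 2000 to 4000 UMIs (1.06 at d22). Sox17 at d36 against d15, near 1, was 0.989 in all deposited cells, 0.999 with doublet calls kept, 0.998 with classes weighted to their d0 shares and 0.954 as the mean over cells. The cause was not tested.

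The Sox17 to Sox18 ratio at d0, d15, d22 and d36 was 1.28, 3.40, 1.07 and 2.66 with values divided by 4 and rounded up, and 0.936, 2.14, 0.833 and 1.70 with cells in place of UMIs, both added after seeing the data. Thinned to 2000 UMIs it was 1.87 at d0 and 1.47 at d22, and with weighted classes 1.82 and 1.45. Sox17 in aerocyte-like cells at d15 against d0 was 1.17 with classes from marker scores, in which 1660 of 8874 cells had their best 2 scores within 0.2 SD. The thinned share of cells with a Sox7 UMI at d36 was 0.857 times that at d0 with 1200 UMIs in place of 2000. With a lower filter of 20 CPM and 50 UMIs, more genes met the size rule: 603 against 237 (d15 against d0), 155 against 70 (d22 against d0), 626 against 278 (d36 against d0), 657 against 275 (d22 against d15), 652 against 301 (d36 against d22) and 378 against 86 (d36 against d15). The last count was 155 after thinning and 52 with values divided by 4. The venous-like and lymphatic-like values rest on few cells, 34 to 131 and 3 to 22 per day.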
